A study of Mus musculus with 2 samples.

Results

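The genes described here are 29 Hox genes, chosen by symbol from the 31053 genes listed in the count matrices. They are all the listed genes of the HoxB and HoxC clusters (10 and 9 genes), together with HoxA paralogues 2 to 7 (6 genes) and the HoxD paralogues 1 to 8 (4 genes). The choice was by symbol and used no measured value, although earlier results of these data were known when it was made. Single-cell RNA sequencing was done on the genital tubercle, the embryonic outgrowth from which penis and clitoris form. Embryos were taken at Theiler stage 22, embryonic day 14.5. The embryos were wild-type C57BL/6, with no treatment named, and were sexed by genotyping. A pool of 3 male embryos gave the male library and a pool of 3 female embryos the female library, all from 2 litters. Embryos within a pool cannot be told apart, so each sex is 1 sample and no difference between the sexes has a replicate check.

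Hox genes encode homeodomain transcription factors that give cells a position along the body axis. They lie in clusters in which the order of the genes matches the order in which they are switched on: genes at the 3′ end, with low paralogue numbers, act early and towards the head, and genes at the 5′ end act late and towards the tail. The 5′ HoxA and HoxD genes, above all Hoxa13 and Hoxd13, are required for the genital tubercle to grow out. The HoxB and HoxC clusters and the 3′ parts of HoxA and HoxD are known mainly from the hindbrain, neck, trunk and vertebrae.

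The libraries held 130105692 male and 144515562 female UMIs (unique molecular identifiers, each counting 1 captured RNA molecule). Barcodes with at least 2000 UMIs, 500 or more detected genes and no more than 10% of UMIs from mitochondrial genes numbered 17254 and 18711, and 14872 and 15910 cells remained after removal of likely doublets, with medians of 4892.5 and 4887 UMIs. Of the cell barcodes, 65 occurred in both libraries (0.437% of the male and 0.409% of the female cells). Cells were grouped without any Hox gene, so levels of Hox genes played no part in forming the groups. Mesenchyme-like cells numbered 14191 and 15384, epithelium-like cells 142 and 88, endothelium-like cells 134 and 79, and erythroid-like cells 124 and 213. Immune-like cells (44 and 32), glia-like cells (31 and 51) and skeletal muscle-like cells (19 and 54) fell under 50 cells in at least 1 library, and a smooth muscle-like cluster held 167 male and 0 female cells. These last classes are described by their counts.

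Levels are CPM: the UMIs of a gene for every 1000000 UMIs of a cell class, taken over all its cells in 1 library, with exact 95% Poisson intervals that cover counting error only. Each molecule is counted by a tag at its 3′ end, so a level does not scale with gene length, although it does depend on how well a gene's 3′ end is annotated. The genes lie on 4 chromosomes of the mouse genome (build mm10): the HoxA genes on chromosome 6 (Hoxa2 at 52162417 to 52164831 and Hoxa7 at 52214491 to 52221854, minus strand), the HoxB genes on chromosome 11 (Hoxb13 at 96194316 to 96197447 and Hoxb1 at 96365752 to 96368256, plus strand), the HoxC genes on chromosome 15 (Hoxc13 at 102921103 to 102928814 and Hoxc4 at 103018934 to 103036852, plus strand) and the HoxD genes on chromosome 2 (Hoxd8 at 74704615 to 74707933 and Hoxd1 at 74762980 to 74765142, plus strand).

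The promoters of 4 of the 13 genes for which a window was found are shown, as examples of unlike levels in endothelium-like cells: Hoxb4, Hoxb8 and Hoxd8 are 3 of the genes higher there than in mesenchyme-like cells in the results that follow, and Hoxc4 had 0 and 1 UMIs there. They were chosen after their values were seen. Each is a window of 300 bases from RefSeq on GRCm38.p6, running 5′ to 3′ on the plus strand. The Hoxb4, Hoxb8 and Hoxd8 windows span the starts of these genes in the annotation used for positions. The Hoxc4 window does not: it lies inside the span given above for that gene (103018934 to 103036852). Capitals mark AGGTCA on either strand, a half-site that retinoic acid receptors bind, and the Hoxb8 window holds none. The windows are chr11:96318017-96318316 for Hoxb4, chr11:96281655-96281954 for Hoxb8, chr2:74704365-74704664 for Hoxd8 and chr15:103034145-103034444 for Hoxc4.
Hoxb4: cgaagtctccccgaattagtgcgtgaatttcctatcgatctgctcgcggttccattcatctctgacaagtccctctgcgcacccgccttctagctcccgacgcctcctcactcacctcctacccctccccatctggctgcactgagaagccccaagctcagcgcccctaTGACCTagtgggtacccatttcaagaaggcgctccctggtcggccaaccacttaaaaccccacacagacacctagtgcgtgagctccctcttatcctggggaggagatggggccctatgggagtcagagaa
Hoxb8: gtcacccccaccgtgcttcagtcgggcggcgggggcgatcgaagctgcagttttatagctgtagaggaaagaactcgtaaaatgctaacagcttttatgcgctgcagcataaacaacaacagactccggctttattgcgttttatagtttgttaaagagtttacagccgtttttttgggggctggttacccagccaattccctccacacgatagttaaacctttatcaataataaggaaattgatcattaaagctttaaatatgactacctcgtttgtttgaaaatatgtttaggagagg
Hoxd8: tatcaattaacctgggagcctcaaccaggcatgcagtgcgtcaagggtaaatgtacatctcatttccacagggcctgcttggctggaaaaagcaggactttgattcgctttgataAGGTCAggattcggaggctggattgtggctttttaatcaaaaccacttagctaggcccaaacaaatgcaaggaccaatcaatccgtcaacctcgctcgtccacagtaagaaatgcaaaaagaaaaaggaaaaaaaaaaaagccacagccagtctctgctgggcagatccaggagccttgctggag
Hoxc4: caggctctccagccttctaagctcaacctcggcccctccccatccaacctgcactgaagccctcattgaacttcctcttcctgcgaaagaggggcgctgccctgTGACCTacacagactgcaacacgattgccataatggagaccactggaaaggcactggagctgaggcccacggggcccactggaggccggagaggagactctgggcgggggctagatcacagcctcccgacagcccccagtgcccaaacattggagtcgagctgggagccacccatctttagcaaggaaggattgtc

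The other 16 of the 29 genes had no window in the table used. AGGTCA occurred on either strand in 6 of the 13 (Hoxa5, Hoxb4, Hoxc4, Hoxd3, Hoxd4 and Hoxd8) and in 16.3% of all 32851 promoter windows. The Hox and Pbx composite site TGATTNAT occurred in 1 of the 13 (Hoxa2) and in 3.22% of all windows, and the ETS site CCGGAAG in 0 of the 13 and 8.86% of all. Both strands were searched, and none of the 13 windows held more than 1 of the 3 motifs, so no match overlapped one of another motif. The AGGTCA motif was present in the windows of both a gene higher in endothelium-like cells (Hoxb4) and one with 0 and 1 UMIs in them (Hoxc4). A match is a description of these letters and not evidence of a bound site.

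In the mesenchyme-like cells, which made up nearly all of both libraries, the 29 genes split by cluster and by position. The 4 genes Hoxa7, Hoxb2, Hoxc10 and Hoxc11 reached 10 CPM in both libraries. Another 12 lay between 1 and 10 CPM, and 13 stayed under 1 CPM in both. The count at or above the limit was 10 with a limit of 5 CPM and 2 with a limit of 20 CPM. Over all 31053 genes, 26.2% reached 10 CPM in both libraries and 59.7% stayed under 1 CPM in both. Summed over the 29 genes the level came to 170 CPM in male and 187 CPM in female cells, against 703 and 728 CPM for the 9 HoxA and HoxD genes of paralogue groups 9 to 13.

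**Figure D1:**
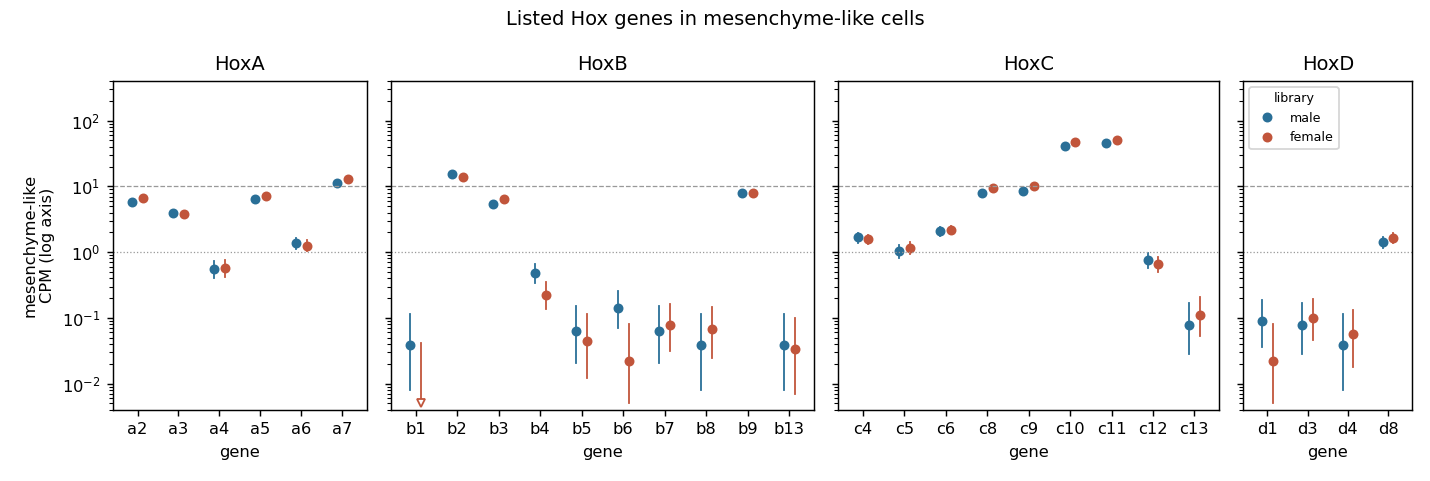
Level of each of the 29 Hox genes in mesenchyme-like cells (y axis, CPM on a log scale) by cluster and paralogue number (x axis). Points are the male (blue) and female (red) library, bars are exact 95% Poisson intervals, open triangles mark 0 UMIs, and lines mark 10 CPM (dashed) and 1 CPM (dotted). HoxC climbs from Hoxc5, which lies below Hoxc4, to Hoxc11 and drops at Hoxc12, and HoxB has a gap from Hoxb4 to Hoxb8.

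The HoxC cluster gave the largest share of the UMIs, 64.4% of male and 66.1% of female UMIs. From Hoxc5 onwards the levels climbed along the cluster up to Hoxc11, while Hoxc5 lay below Hoxc4 in both libraries. Hoxc4 and Hoxc5, which act in the neck and upper trunk, stood at 1.67 and 1.03 CPM in the male library and at 1.56 and 1.16 CPM in the female. Hoxc6 stood at 2.08 and 2.19 CPM in the male and female libraries. Hoxc8 and Hoxc9, genes of the thoracic skeleton, stood at 7.80 and 8.47 CPM in the male library and at 9.58 and 9.97 CPM in the female. The highest values were those of Hoxc10, a gene of the lumbar axis and the hindlimb, and of its neighbour Hoxc11.

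Hoxc10 was counted at 41.4 CPM (95% interval 40.0 to 42.8) in male and 47.7 CPM (46.3 to 49.2) in female cells. Hoxc11 was counted at 46.3 CPM (44.8 to 47.9) and 50.3 CPM (48.8 to 51.8). At least 1 UMI of Hoxc10 was seen in 17.6% and 20.1% of mesenchyme-like cells, and of Hoxc11 in 20.1% and 22%. With every cell thinned to 2000 UMIs these shares were 7.19% and 7.83% for Hoxc10 and 8.07% and 9.08% for Hoxc11. In the free RNA of barcodes with 1 to 100 UMIs, Hoxc10 stood at 33.3 and 33.7 CPM and Hoxc11 at 43.0 and 39.1 CPM.

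Beyond Hoxc11 the cluster fell off sharply. Hoxc12 had 59 UMIs in each library (0.758 and 0.660 CPM). Hoxc13, known for its part in hair and nail formation, had 6 male and 10 female UMIs (0.0771 and 0.112 CPM). Both genes at the 5′ end of HoxC were close to absent from the mesenchyme-like cells, in which 5′ genes of HoxA and HoxD were abundant: Hoxa13 at 93.9 and 90.5 CPM and Hoxd13 at 166 and 183 CPM.

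The HoxB cluster was read at its 3′ side and at Hoxb9, with a gap between. Hoxb2, a gene of hindbrain identity, was at 15.4 CPM (14.5 to 16.3) in male and 14.1 CPM (13.3 to 14.9) in female cells. Hoxb3 was at 5.33 and 6.42 CPM, and Hoxb9, which acts in the thoracic skeleton, at 7.85 and 7.99 CPM. Between them, Hoxb4, Hoxb5, Hoxb6, Hoxb7 and Hoxb8 summed to 61 male and 39 female UMIs, or 0.784 and 0.437 CPM for all 5 together. At the ends of the cluster, Hoxb1 had 3 and 0 UMIs and Hoxb13 had 3 and 3. A count of 0 over all female mesenchyme-like UMIs allows up to 0.0336 CPM.

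Of the HoxA genes, Hoxa7 was the highest, at 11.4 CPM (10.7 to 12.2) in male and 13.1 CPM (12.4 to 13.9) in female cells. Hoxa5 stood at 6.45 and 7.08 CPM, Hoxa2, which patterns the second pharyngeal arch, at 5.75 and 6.73 CPM, and Hoxa3, needed for the thymus and parathyroid, at 3.91 and 3.77 CPM. Hoxa6 was low, at 1.36 and 1.3 CPM (106 and 112 UMIs), and Hoxa4 lower still, at 0.552 and 0.571 CPM. The HoxA levels thus did not follow the order of the genes: the fourth and sixth paralogues were below both of their neighbours in both libraries.

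The 3′ HoxD genes were almost unread in mesenchyme-like cells. Hoxd1, Hoxd3 and Hoxd4 had 7, 6 and 3 male UMIs and 2, 9 and 5 female UMIs. Hoxd3 and Hoxd4 are uncertain, because 55.2% and 39.6% of the exon sequence at their 3′ ends also belongs to the gene model Gm28230, so that reads could be split or lost, and Gm28230 itself had 4 and 3 UMIs. Hoxd4 is listed under 2 gene identifiers, which are summed here. Hoxd8, at the border to the 5′ HoxD genes, stood at 1.41 and 1.63 CPM, close to Hoxd9 at 1.77 and 1.44 CPM.

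The endothelium-like cells carried another set of Hox genes than the mesenchyme. Against mesenchyme-like cells, 7 of the 29 genes were at least 2-fold higher in both libraries with at least 10 CPM, where 3.79% of all genes were, and 2 were at least 2-fold lower, where 4.37% of all genes were. The 7 were Hoxa7, Hoxb4, Hoxb6, Hoxb7, Hoxb8, Hoxb9 and Hoxd8, and the 2 were Hoxc10 and Hoxc11. The genes from Hoxb4 to Hoxb8, the gap of the mesenchyme, summed to 93.1 CPM (81.5 to 106) in male and 123 CPM (104 to 143) in female cells. The mesenchyme markers summed in these cells to 2.89% and 3.71% of their level in mesenchyme-like cells, with 1 of the 9 markers at 0 in each library.

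Hoxb4, known from the hindbrain and from blood stem cells, had 55 UMIs in each library, 22.2 CPM (16.7 to 28.9) in male and 41.9 CPM (31.6 to 54.5) in female endothelium-like cells. These levels were 46.6-fold (30.2 to 72.8) and 187-fold (110 to 330) those of the mesenchyme-like cells. At least 1 UMI of Hoxb4 was found in 32.1% and 34.2% of endothelium-like cells, against 0.254% and 0.124% of mesenchyme-like cells, whose median depth was lower (4809 and 4829.5 against 13568.5 and 11332 UMIs). In the free RNA Hoxb4 had 4 and 3 UMIs, or 1.61 and 1.2 CPM.

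Hoxb7 followed the same split, with 80 and 55 UMIs (32.2 and 41.9 CPM), 502-fold (206 to 1590) and 535-fold (243 to 1390) above the mesenchyme. Hoxb8 was at 20.6 CPM (15.3 to 27.0) and 17.5 CPM (11.1 to 26.3), Hoxb6 at 10.1 and 12.2 CPM and Hoxb5 at 8.06 and 9.14 CPM. Hoxb9 was at 43.9 and 44.2 CPM, 5.60-fold (4.52 to 6.87) and 5.53-fold (4.15 to 7.23) above the mesenchyme. Hoxb2 and Hoxb3, on the 3′ side of the gap, did not share this. Hoxb2 was at 9.27 and 7.62 CPM, under its level in mesenchyme-like cells. Hoxb3 was at 4.43 and 4.57 CPM. The intervals of both its ratios to the mesenchyme included 1, running from 0.412 to 1.5 and from 0.26 to 1.56.

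Hoxd8 was the HoxD gene of the endothelium, with 125 male and 47 female UMIs, 50.4 CPM (41.9 to 60.0) and 35.8 CPM (26.3 to 47.6). It was 35.7-fold (27.4 to 46.5) and 21.9-fold (15.4 to 30.6) above the mesenchyme. Its 5′ neighbour Hoxd9 was at 19.4 and 18.3 CPM, 10.9-fold and 12.7-fold above the mesenchyme, whereas Hoxd13 was at 2.82 and 5.33 CPM. Hoxa7 was at 33.9 and 33.5 CPM, 2.96-fold and 2.55-fold above the mesenchyme, and Hoxa3 at 8.87 and 9.14 CPM. Hoxa5 (8.06 and 7.62 CPM) was near its mesenchyme level (6.45 and 7.08 CPM), and the intervals of both ratios included 1, running from 0.757 to 1.95 and from 0.513 to 1.99. Of the 7 higher genes, 5 kept the call with at most 5% mitochondrial UMIs, where Hoxa7 and Hoxb6 lost it, and 5 with cells thinned to 2000 UMIs, where Hoxa7 and Hoxb8 lost it. Hoxb6 also lost it with a minimum of 1000 UMIs.

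HoxC was low in endothelium-like cells. The 5 genes from Hoxc4 to Hoxc9 had 4 male and 1 female UMIs in all, 1.61 CPM (0.439 to 4.13) and 0.762 CPM (0.0193 to 4.24), against 21 and 24.5 CPM in the mesenchyme. Hoxc10 had 7 and 4 UMIs and was 14.7-fold (7.11 to 36.5) and 15.7-fold (6.11 to 57.5) below the mesenchyme. Hoxc11 had 2 and 3 UMIs and was 57.5-fold (15.9 to 475) and 22-fold (7.52 to 107) below it. As means of both libraries on CPM + 0.5, Hoxc10 was at the least 6.37-fold below, without doublet removal, against 13.1-fold with it, and Hoxc11 8.74-fold with thinned cells against 25.6-fold without thinning. Hoxc6, Hoxc12, Hoxc13, Hoxb13 and Hoxd1 had no UMI in either library, which at this depth allows up to 1.21 and 2.28 CPM each.

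The endothelium-like cells formed 3 sub-clusters, again made without Hox genes: one led by haemoglobin genes and Eln, one by the arterial genes Gja4 and Gja5, and one by cell-cycle genes. The 10 leading genes of the arterial one also held the mesenchyme genes Prrx1 and Crabp2, and all 4 female UMIs of Hoxc10 and all 3 of Hoxc11 in endothelium-like cells lay in it; the part of mesenchyme RNA in these values was not tested. Hoxb4 to Hoxb9 summed to 103, 204 and 137 CPM in the male and 142, 183 and 173 CPM in the female cells of these. Hoxc4 to Hoxc9 had at most 2 UMIs in any of them. The high HoxB and low HoxC levels were therefore seen in each sub-cluster and in both libraries.

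**Figure D2:**
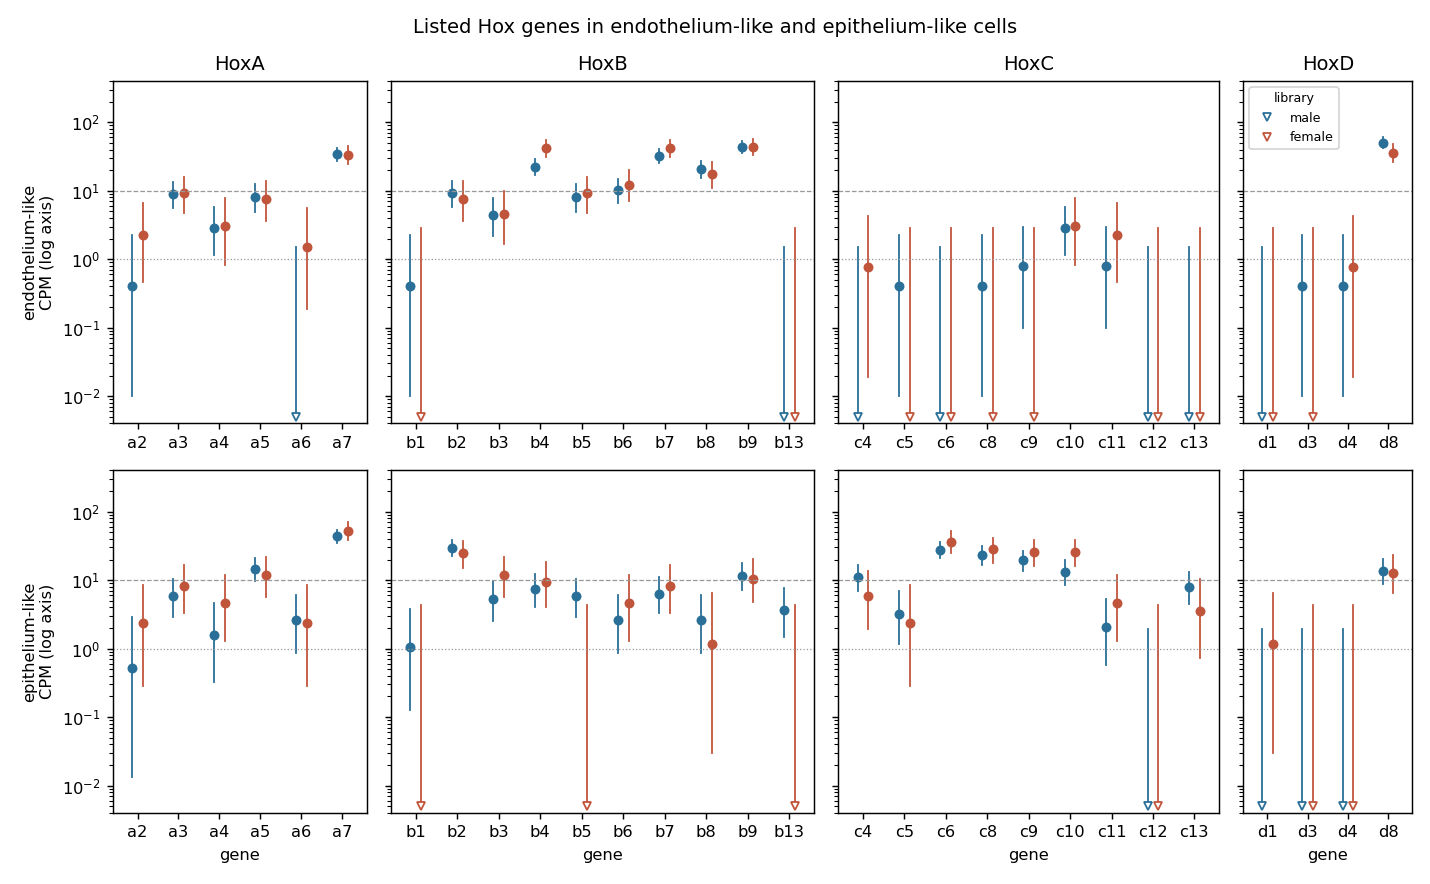
Level of each of the 29 Hox genes (y axis, CPM on a log scale) in endothelium-like (top) and epithelium-like (bottom) cells, by cluster and paralogue number (x axis). Points are the male and female library, bars are exact 95% Poisson intervals, and open triangles mark 0 UMIs. In endothelium-like cells Hoxb4 to Hoxb9 and Hoxd8 are high and HoxC is low, and in epithelium-like cells Hoxc6, Hoxc8 and Hoxc9 are above 19 CPM.

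The epithelium-like cells, led by the basal keratin genes Krt14, Krt5 and Krt15, carried HoxC genes, but shifted towards the 3′ side. Against mesenchyme-like cells, 5 of the 29 genes were at least 2-fold higher in both libraries with at least 10 CPM (Hoxa7, Hoxc6, Hoxc8, Hoxc9 and Hoxd8), where 1.82% of all genes were. Hoxc11 alone was at least 2-fold lower, where 2.64% of all genes were. With the mean of each cell's own CPM, or with each cell thinned to 2000 UMIs, 3 of these 5 kept the call and Hoxc9 and Hoxd8 lost it. Hoxc6 lost it with at most 5% mitochondrial UMIs, and Hoxc9 with a minimum of 4853 UMIs or without doublet removal. Mesenchyme markers summed to 7.16% and 11.6% of their level in mesenchyme-like cells, and the part of such RNA in these values was not tested.

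Hoxa7 had the highest level, with 84 and 45 UMIs, 44.2 CPM (35.2 to 54.7) and 52.8 CPM (38.5 to 70.6). It was 3.86-fold (3.05 to 4.83) and 4.02-fold (2.92 to 5.42) above the mesenchyme. Hoxc6, which in the mesenchyme was near 2 CPM, was at 27.9 CPM (20.9 to 36.4) and 36.4 CPM (24.7 to 51.6), or 13.4-fold (9.62 to 18.4) and 16.6-fold (11 to 24.3) above it. Hoxc8 was at 23.1 and 28.2 CPM and Hoxc9 at 19.5 and 25.8 CPM.

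Hoxc10 and Hoxc11, the highest HoxC genes of the mesenchyme, ran the other way. Hoxc10 was at 13.1 and 25.8 CPM, under its mesenchyme level in both libraries. Hoxc11 had 4 UMIs in each library, 22-fold (8.59 to 80.9) and 10.7-fold (4.18 to 39.3) below the mesenchyme. The highest HoxC gene was thus Hoxc6 in epithelium-like cells and Hoxc11 in mesenchyme-like cells. With at most 5% mitochondrial UMIs the epithelial peak was not at Hoxc6, which stood at 8.4 and 25.3 CPM against 30.8 and 36.5 CPM for Hoxc8. In female cells Hoxc10 was highest without doublet removal, and Hoxc8 by the mean of each cell's CPM. The ratio of Hoxc11 in mesenchyme-like over epithelium-like cells, 13.3-fold as the mean of both libraries on CPM + 0.5, was 4.39-fold without doublet removal. With at most 5% mitochondrial UMIs Hoxc11 had no epithelial UMI in either library.

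Hoxd8 was at 13.7 and 12.9 CPM in epithelium-like cells, Hoxb2 at 30.0 and 24.6 CPM, Hoxa5 at 14.7 and 11.7 CPM and Hoxb9 at 11.6 and 10.6 CPM. Hoxb4 to Hoxb8 were read here as well, at 24.7 CPM (18.2 to 32.9) and 23.5 CPM (14.3 to 36.2) in sum, between the endothelium-like and mesenchyme-like levels. Hoxb4 was at 7.36 and 9.39 CPM, and Hoxc4 reached 11 CPM in male and 5.87 CPM in female cells. Hoxc13, with 6 and 10 UMIs in all mesenchyme-like cells, had 15 UMIs in 11 of the 142 male cells and 3 UMIs in 3 of the 88 female cells. Hoxc12, Hoxd3 and Hoxd4 had no UMI in either library.

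Within the epithelium-like class, 5 sub-clusters differed in their Hox genes. One, of 24 male and 17 female cells, was led by Shh, Foxa2, Krt8 and Foxa1, genes known from the endodermal lining of the urethra, and held few HoxC UMIs. Hoxc4 to Hoxc9 had 0 UMIs in 347221 male UMIs, which allows up to 8.64 CPM, and 1 in 136608 female UMIs (7.32 CPM, interval 0.185 to 40.8). Hoxc10 had no UMI in it in either library, and Hoxc11 had 2 male UMIs in 2 cells (5.76 CPM, interval 0.698 to 20.8), of the 4 male epithelial UMIs of that gene, and 0 female UMIs. In the sub-cluster led by Shox2 and cell-cycle genes, Hoxc4 to Hoxc9 stood at 87.9 CPM (67.7 to 112) and 130 CPM (97.5 to 169), and in that led by Stmn2 and Sorbs2 at 135 CPM (106 to 169) and 128 CPM (71.6 to 211). The sub-cluster led by Gabrp and Tac2 had 36.7 CPM (10.0 to 94.0) and 79.4 CPM (36.3 to 151). That led by AY036118 and Hbb-y had 109 CPM (62.3 to 177) and 72.2 CPM (23.4 to 169). The female intervals of both overlapped that of the sub-cluster led by Shh.

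HoxB genes were read both in the sub-cluster led by Shh and in the others. Hoxb4 to Hoxb9 summed to 49.0 CPM (28.5 to 78.4) and 22 CPM (4.53 to 64.2) in the sub-cluster led by Shh, and to 28.8 and 31.3 CPM in that led by Shox2. All 7 epithelial UMIs of Hoxb13, a gene known from the prostate and hindgut, lay in the sub-cluster led by Shh, in 5 of its 24 male cells. Its 17 female cells had 0, which allows up to 22 CPM, so a difference between the libraries was not detectable at this depth. The 18 UMIs of Hoxc13 lay outside it, in the other sub-clusters.

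**Figure D3:**
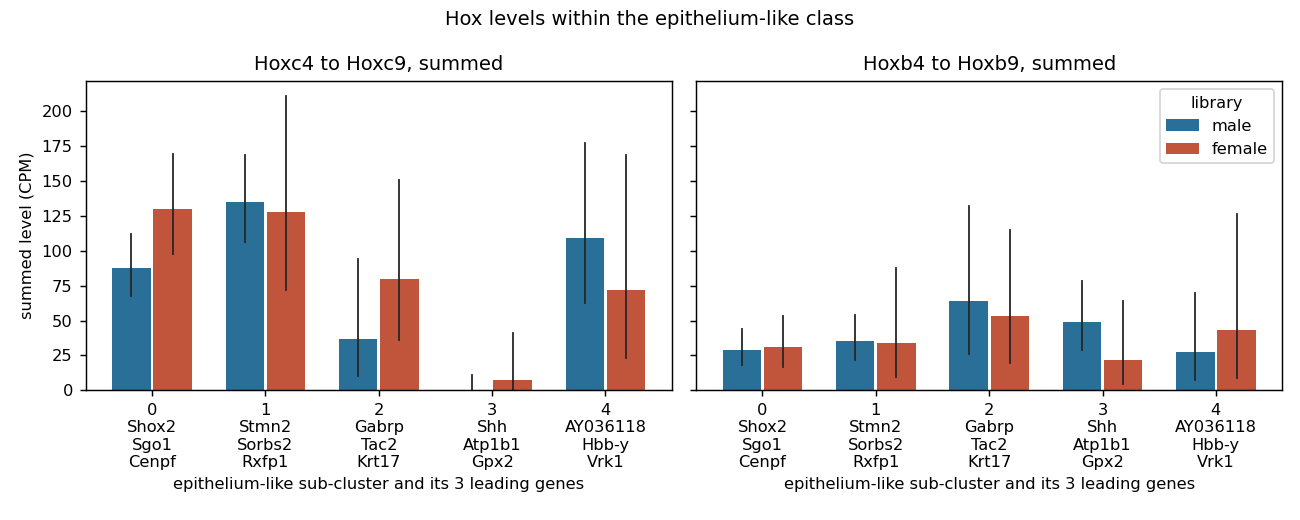
Summed level (y axis, CPM) of Hoxc4 to Hoxc9 (left) and of Hoxb4 to Hoxb9 (right) in the 5 epithelium-like sub-clusters, named by their leading genes (x axis). Bars are the male (blue) and female (red) library and lines are exact 95% Poisson intervals. Sub-cluster 3, led by Shh, had 0 and 1 UMIs of Hoxc4 to Hoxc9, and its HoxB levels overlapped those of the others.

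The smaller classes also differed in these genes. In glia-like cells, whose leading genes included Foxd3 and Sox10, Hoxb9 was the highest of the 29, with 53 and 73 UMIs in 31 and 51 cells, 185 CPM (138 to 242) and 130 CPM (102 to 163). Hoxd8 was at 52.3 and 40.8 CPM, Hoxc10 at 45.3 and 55 CPM, Hoxc9 at 38.3 and 24.9 CPM and Hoxb2 at 31.4 and 24.9 CPM. Hoxb7, at 24.4 and 12.4 CPM, and Hoxc6, at 24.4 and 21.3 CPM, also reached 10 CPM in both libraries. Hoxb4 to Hoxb8 summed to 48.8 and 40.8 CPM and the HoxC genes to 125 and 126 CPM, so both groups were read in these cells. Mesenchyme markers stood at 24.0% and 19.8% of the mesenchyme level in these cells, and their part in these values was not tested.

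In skeletal muscle-like cells, HoxC gave 83.9% and 87.9% of the UMIs of the 29 genes. Hoxc10 was at 68.8 CPM (42.6 to 105) and 55.2 CPM (41.1 to 72.6), Hoxc9 at 42.6 and 28.1 CPM, Hoxc11 at 22.9 and 32.5 CPM and Hoxc6 at 13.1 and 17.3 CPM. Hoxb4 to Hoxb8 and Hoxd8 had no UMI in 19 male and 54 female cells, which allows up to 9.83 and 3.25 CPM for each gene. These limits lie above the mesenchyme levels of these genes, so the zeros do not show absence. Endothelium-like cells held the middle HoxB genes with little HoxC, whereas glia-like cells held both. In skeletal muscle-like cells mesenchyme markers stood at 15.8% and 12.8% of the mesenchyme level, and their part in these values was not tested.

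Immune-like cells had 5 and 8 UMIs of the 29 genes in all, and 21 of the genes had none in either library. Hoxc11 and Hoxc10 gave 4 and 0 of the 5 male UMIs and 1 and 2 of the 8 female UMIs. Erythroid-like cells, in which haemoglobin took 48.9% and 49.1% of UMIs, had Hoxc10 at 18.0 and 19.3 CPM and Hoxc11 at 26.5 and 22 CPM. Those cells also held mesenchyme markers at 39.5% and 43.4% of the mesenchyme level, and the part of such RNA was not tested. In them 0 of the 29 genes were at least 2-fold above the mesenchyme in both libraries (0.406% of all genes) and 2, Hoxb2 and Hoxc10, were below (14.0% of all genes). The large haemoglobin share in itself lowers the CPM of every other gene in these cells. These calls therefore do not show lower levels among the remaining UMIs. The male smooth muscle-like cluster had Hoxc10 at 60.7 CPM, Hoxc9 at 19.6 CPM, Hoxc11 at 16.5 CPM and no UMI of Hoxb7 or Hoxb8. An unnamed cluster of 20 and 9 cells, led by the mast cell genes Cma1 and Cpa3, had 9 and 5 UMIs of the 29 genes.

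Mesenchyme-like cells formed 21 clusters, of which 16 could be placed in 9 domains named by marker genes, each with at least 50 cells in both libraries. Some of these clusters were led by cell-cycle genes. In the Msx2 domain these were Ube2c and Cenpf or Hist1h1b and Hist1h2ap, and in the Rprm and Pcdh10 domain Pclaf and Hist1h1b. The domains thus mix region with cell-cycle state, and the part of the latter in the levels was not tested. A gene was said to have a domain pattern where its highest and lowest domain differed at least 2-fold in both libraries and the same domain was highest in both. Of the 16 of the 29 genes at 1 CPM or more in both libraries, 12 had such a pattern, where 24.7% of 12220 genes at that level did. The 4 without it were Hoxa2, Hoxa3, Hoxa6 and Hoxc9, whose highest domain differed between the libraries. The count was 6 with each cell thinned to 2000 UMIs, which left out Hoxa5, Hoxb2, Hoxb3, Hoxc5, Hoxc6 and Hoxd8. It was 7 with each cluster taken alone and 7 with at most 5% mitochondrial UMIs, which kept only 1213 and 1101 cells. The share over all genes is given for the main setting only, so these lower counts cannot be set against one.

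**Figure D4:**
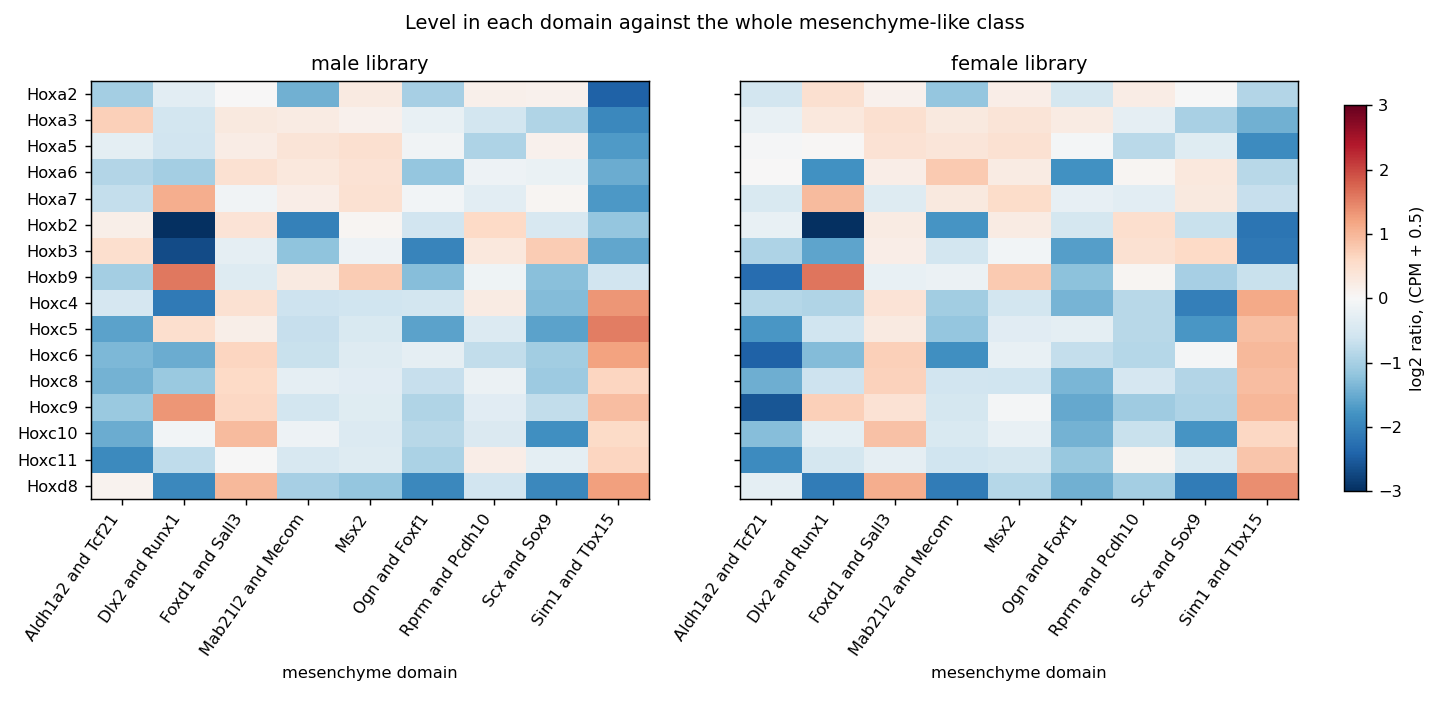
Level of 16 Hox genes (rows) in 9 mesenchyme domains (columns), as the log2 ratio of CPM + 0.5 in the domain to that in all mesenchyme-like cells, for the male (left) and female (right) library. Red is above and blue below the whole class. Hoxb9 and Hoxa7 are highest in the Dlx2 and Runx1 domain, where Hoxb2 and Hoxb3 are low, and most HoxC genes are highest in the Sim1 and Tbx15 domain.

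Hoxc10 was highest in the domain marked by Foxd1 and Sall3, at 79.9 CPM in male and 88.8 CPM in female cells, followed by the Sim1 and Tbx15 domain at 62.3 and 73.3 CPM. It was lowest in the Scx and Sox9 domain, at 11.2 and 13.8 CPM, and in the Aldh1a2 and Tcf21 domain, at 14.5 and 19.5 CPM. The Ogn and Foxf1 domain had 23.1 and 17.6 CPM, the Dlx2 and Runx1 domain 39.4 and 39.1 CPM, the Mab21l2 and Mecom domain 37.3 and 34.6 CPM, the Msx2 domain 30.9 and 41.0 CPM and the Rprm and Pcdh10 domain 30.6 and 29.6 CPM. The highest and lowest domains differed 6.85-fold and 6.27-fold, computed on CPM + 0.5. The mean of both libraries, 6.55-fold, ran from 3.34-fold with at most 5% mitochondrial UMIs to 9.69-fold with thinned cells.

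Hoxc11 had a different peak from its neighbour. It was highest in the Sim1 and Tbx15 domain, at 72.4 and 89.6 CPM, followed by the Rprm and Pcdh10 domain at 53.0 and 53.2 CPM and the Foxd1 and Sall3 domain at 45.8 and 41.9 CPM. It was lowest in the Aldh1a2 and Tcf21 domain, at 11.9 and 13.2 CPM. In the Scx and Sox9 domain, where Hoxc10 was lowest, Hoxc11 stood at 37.4 and 36.2 CPM. The other domains were the Msx2 domain at 35.6 and 35.0 CPM, the Mab21l2 and Mecom domain at 33.0 and 33.3 CPM, the Dlx2 and Runx1 domain at 26.9 and 34.8 CPM and the Ogn and Foxf1 domain at 23.7 and 22.7 CPM.

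The 3′ HoxC genes and Hoxd8 shared the Sim1 and Tbx15 domain as their highest. There Hoxc4 was at 4.95 and 3.99 CPM, Hoxc5 at 3.96 and 2.63 CPM, Hoxc6 at 5.44 and 4.76 CPM, Hoxc8 at 12.4 and 18.7 CPM and Hoxd8 at 3.96 and 5.15 CPM. Hoxc8 and Hoxc9 were lowest in the Aldh1a2 and Tcf21 domain in both libraries. Hoxc5 had 0 UMIs in both libraries there and in the Scx and Sox9 domain, and 0 male UMIs in the Ogn and Foxf1 domain. The Aldh1a2 and Tcf21 domain held 1934626 male and 1592412 female UMIs. At the 1.03 and 1.16 CPM of the whole class, Hoxc5 would give few UMIs at such depth. The zeros therefore do not show absence. Hoxc9 was high both in the Dlx2 and Runx1 domain (22 and 16.8 CPM) and in the Sim1 and Tbx15 domain (16.7 and 20.3 CPM). Hoxc12, under 1 CPM in the class as a whole, reached 3.37 and 2.23 CPM in the Foxd1 and Sall3 domain.

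Hoxb2 and Hoxb9, on opposite sides of the gap in HoxB, were opposed in the domain marked by Dlx2 and Runx1. Hoxb2 was nearly absent there, at 0.829 and 0.601 CPM, against 23.7 and 20.1 CPM in the Rprm and Pcdh10 domain, 18.2-fold and 18.7-fold on CPM + 0.5. As the mean of both libraries this ratio was 18.5-fold, and it ran from 5.21-fold without doublet removal to 37.1-fold with a minimum of 1000 UMIs, a value that depends on the added 0.5. Its other high domains were the Foxd1 and Sall3 domain (20.7 and 16.7 CPM) and the Msx2 domain (16.0 and 16.9 CPM), and it was low in the Mab21l2 and Mecom domain (3.39 and 3.76 CPM) and the Sim1 and Tbx15 domain (6.60 and 2.72 CPM). Hoxb2 was at 17.6 and 11.9 CPM in the Aldh1a2 and Tcf21 domain, 10.9 and 8.75 CPM in the Scx and Sox9 domain and 10.2 and 9.65 CPM in the Ogn and Foxf1 domain. Hoxb9 instead had its highest level in the Dlx2 and Runx1 domain, at 24.4 and 25.2 CPM, followed by the Msx2 domain at 13.6 and 14.0 CPM.

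Hoxa7 shared that domain with Hoxb9, at 24.9 and 25.8 CPM, and was lowest in the Sim1 and Tbx15 domain, at 3.13 and 7.97 CPM. In the Msx2 domain Hoxa7 was at 15.9 and 19.4 CPM, in the Mab21l2 and Mecom domain at 13.1 and 16.3 CPM and in the Scx and Sox9 domain at 12.0 and 16.3 CPM. The remaining 4 domains were lower, from 6.72 CPM in the Aldh1a2 and Tcf21 domain of the male library to 11.1 CPM in the Ogn and Foxf1 domain of the female library. Hoxa5 was highest in the Msx2 domain (9.20 and 9.97 CPM) and lowest in the Sim1 and Tbx15 domain (1.65 and 1.56 CPM). Hoxb3 was highest in the Scx and Sox9 domain (9.36 and 10.0 CPM). The HoxA genes with a pattern, Hoxa5 and Hoxa7, thus had their lowest level where most HoxC genes had their highest.

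The genes of the HoxB gap were low in every domain. Hoxb4 reached at most 1.42 CPM in male and 0.556 CPM in female cells, both in the Foxd1 and Sall3 domain. Hoxb5, Hoxb6, Hoxb7 and Hoxb8 had 6, 11, 10 and 9 UMIs over all domains and both libraries and stayed at or under 0.601 CPM in each. Across the 21 mesenchyme-like clusters, Spearman's rho between the male and the female level was 0.916 for Hoxb9, 0.935 for Hoxc8 and 0.884 for Hoxb2, and the lowest among the 16 genes was 0.60 for Hoxc4. These clusters were formed on both libraries together and differ in depth, so the values are a description.

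Among pairs of the 16 genes, the levels over the clusters were most alike, by the lower rho of the libraries, for Hoxc6 and Hoxc8 (rho 0.857 male, 0.835 female) and for Hoxc9 and Hoxc10 (0.829 and 0.896). The most opposed pair in the male library was Hoxa7 and Hoxc4 (rho -0.76, and -0.44 in the female library). Genes of either of the first pairs are next to each other in the HoxC cluster, but likeness did not follow position throughout. The neighbours Hoxc10 and Hoxc11 had rho 0.475 male and 0.361 female. Hoxc8 and Hoxc10, which are not neighbours, had 0.84 and 0.808.

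Male and female levels in mesenchyme-like cells were compared for those of the 29 genes with enough counts. A summed count of at least 100 was reached by 17, and of these 5 had their higher level in male cells and 12 in female cells. None of the 17 was at least 25% higher in either library than in the other, where 8.00% of 13084 genes were. With only 17 genes, a count of 0 is near that share and does not set these genes apart. The ratios ran from a log2 male over female value of -0.30 (Hoxc8) to 0.20 (Hoxc12), with a median of -0.14 against -0.02 for all genes. With 1 pool per sex this spread has no replicate check, and intervals cover counting error only.

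Of the 17, 7 had intervals below 0 (Hoxa2, Hoxa7, Hoxb3, Hoxc8, Hoxc9, Hoxc10 and Hoxc11), 1 above 0 (Hoxb2) and 9 including 0. Hoxc10 was at -0.21 (-0.27 to -0.14), Hoxc11 at -0.12 (-0.18 to -0.05), Hoxc8 at -0.30 (-0.45 to -0.15) and Hoxb2 at 0.12 (0.01 to 0.24). The Sim1 and Tbx15 domain, in which most HoxC genes were highest, held 1023 male and 1610 female cells. When each cluster was given the same weight in both libraries, the median ratio moved from -0.14 to -0.04. Within the Sim1 and Tbx15 domain Hoxc11 was at -0.31 (-0.47 to -0.14) and Hoxa7, with 19 male and 82 female UMIs, at -1.35 (-2.15 to -0.61), and within the Msx2 domain Hoxc11 was at 0.02 (-0.13 to 0.17). In that domain Hoxc10 was at -0.41 (-0.56 to -0.26), Hoxc9 at -0.57 (-0.91 to -0.25) and Hoxa7 at -0.29 (-0.50 to -0.07), and the intervals of the other genes with 100 UMIs there included 0. Over all mesenchyme-like cells, 2 genes below the count needed for this comparison had intervals above 0. Hoxb4, with 37 male and 20 female UMIs, was at 1.09 (0.26 to 1.95). Hoxb6, with 11 male and 2 female UMIs, was at 2.66 (0.46 to 5.87). The intervals of the other genes below that count included 0. In endothelium-like cells Hoxb4 lay the other way, at -0.92 (-1.48 to -0.35), with 55 UMIs in each library.

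**Figure D5:**
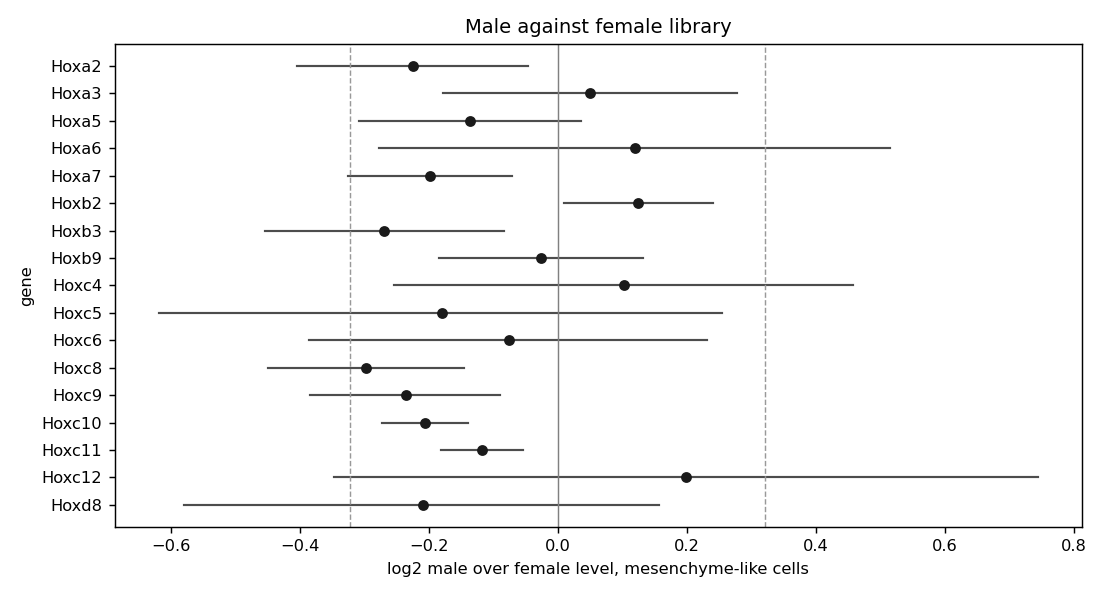
Log2 male over female level (x axis) of the 17 Hox genes with at least 100 UMIs in mesenchyme-like cells (y axis). Points are ratios of CPM, bars exact 95% intervals for counting error, and dashed lines mark an excess of 25% in either library. Ratios run from -0.30 to 0.20 and no point reaches a dashed line.

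Genes that work with or on the Hox clusters were read from fixed lists in the same mesenchyme-like cells. All 10 listed TALE genes, which encode homeodomain partners of Hox proteins, had at least 100 UMIs, and 0 differed by at least 25% between the libraries. Meis2 (175 and 186 CPM), Meis1 (114 and 134 CPM) and Tgif1 (69.5 and 74.7 CPM) were among those with the highest counts. Of 17 Polycomb and Trithorax genes, which keep Hox genes silent or active, 16 had at least 100 UMIs and 1 differed by at least 25%, the X-linked Kdm6a, at 37.4 and 56.8 CPM and named after its value was seen. Ezh2 (217 and 249 CPM), Kmt2a (74.7 and 91.6 CPM), Rnf2 (73.0 and 77.6 CPM) and Suz12 (67.8 and 72.3 CPM) led that list.

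Of 13 genes of retinoic acid response, which acts on the 3′ Hox genes, 11 had at least 100 UMIs. Aldh1a2 (21.2 and 16.3 CPM) and Dhrs3 (9.38 and 7.17 CPM) were at least 25% higher in the male library and Stra6 (22.5 and 28.9 CPM) in the female library, all 3 named after their values were seen. Crabp2 (526 and 541 CPM), Crabp1 (224 and 249 CPM), Rarg (65.3 and 66.6 CPM) and Cyp26b1 (42.9 and 37.4 CPM) had the highest counts. Of 7 genes that set the axis earlier in development, 6 were in the files and only Gdf11 (17.5 and 19.2 CPM) reached 100 UMIs. Cdx2 and Cdx4, activators of Hox genes in the tail bud, had 0 UMIs in both libraries.

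Of 17 listed non-coding RNAs of the Hox clusters, 7 were in the files, 5 had at least 100 UMIs, and 0 differed by at least 25%. Hotair, transcribed antisense between Hoxc11 and Hoxc12, was at 10.5 and 12.3 CPM, and Hoxb3os at 7.51 and 7.69 CPM. Hottip was at 6.53 and 6.96 CPM and Hotairm1 at 2.59 and 2.98 CPM. How the counting used strand is not given in the sources used here, so reads of an antisense gene and of the gene opposite it may not be separated.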

How the data were processed

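Droplet-based 3′ single-cell RNA sequencing gave 1 male and 1 female library. Per the submitters' processing notes, Cell Ranger 3.1 and the genome build mm10 were used, while the sources used here give no annotation release. The authors deposited raw UMI counts per gene and barcode, including barcodes that are not cells. The 29 genes and the gene lists were chosen with earlier results of these data known.

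Barcodes with at least 2000 UMIs, 500 or more genes and no more than 10% of UMIs from mitochondrial genes were kept. The automatic Scrublet threshold called 0% doublets and had thus not worked, so the highest scores were removed at 0.8% per 1000 cells (2382 and 2801 barcodes). Both libraries were clustered together (scanpy 1.11.5, python-igraph 0.11.9) on 1985 variable genes, 30 principal components, 15 neighbours and Leiden resolution 1. The 7 Hox genes among the variable genes were left out. Clusters were named from fixed marker lists, and 1 cluster with mast cell genes stayed unnamed.

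Counts were summed per library and class. Each sex has 1 library, so nothing was tested, and intervals are exact (Poisson for levels, conditional binomial for ratios, scipy 1.17.1). A count of 0 was given a limit of 3 counts. Class comparisons used 2-fold in both libraries and classes of at least 50 cells in each. The calls and intervals were also run on simulated data, but no outcome of that run is given here. It is therefore not a check on the calls or on the intervals, which cover counting error only. Positions came from GENCODE M21, which held 30934 of 31053 gene identifiers (99.6%), and promoter windows from RefSeq on GRCm38.p6.

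Every one of the 29 genes is accounted for. Values in each domain are given for genes at 10 CPM or more in mesenchyme-like cells, values by class also for genes that reach 10 CPM in another class in both libraries, and of each list the 4 genes with the highest summed count and any at 0, except that some items are not reported here.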

Additional observations from a re-analysis of the deposited data

How the results depend on the processing

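None of 178 ratios of single genes over 10 alternatives changed direction. Another 103 values over 20 alternatives were counts, which cannot change direction, or the median male over female ratio. Of these 103, 87 were classed as close to the reported value, by a wide rule. It took 9 domain patterns as close to 12, and 5 genes higher in endothelium-like cells as close to 7. Of the ratios, 150 lay within 1.5 times the reported fold and 28 did not, and 5 of the 19 ratios stayed within it under every alternative that gave a value. On means of both libraries (CPM + 0.5), Hoxd8 in epithelium-like cells moved from 6.82-fold to 1.5-fold with thinned cells, Hoxb9 between its domains from 7.15-fold to 3.4-fold and Hoxc11 from 6.22-fold to 2.77-fold, both without doublet removal. The number of genes at 10 CPM or more in mesenchyme-like cells was 10 at a limit of 5 CPM and 2 at 20 CPM. The median log2 male over female ratio, -0.14, was -0.0847 with a minimum of 4853 UMIs, -0.0683 with at most 5% mitochondrial UMIs, -0.0432 with clusters weighted alike and -0.20 with a summed count of at least 500. Genes at least 25% higher in either library numbered 1 with the minimum of 4853 UMIs (Hoxb3), 2 with cells thinned to 2000 UMIs (Hoxa2 and Hoxc6) and 1 with a summed count of at least 20 (Hoxb4). In epithelium-like cells 3 genes were higher with the mean of each cell's CPM and 3 with thinned cells, and 2 were lower (Hoxc10 added) with the minimum of 4853 UMIs and 2 with the mean of each cell's CPM. Domain patterns numbered 7 with at most 5% mitochondrial UMIs, 6 with thinned cells and 7 with each cluster on its own, with no share over all genes given for these settings. The causes were not tested.

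No paired analysis was possible because each sex has 1 library and no test was made. Depth limits the classes other than mesenchyme: in endothelium-like cells a count of 0 allows up to 1.21 CPM in male and 2.28 CPM in female cells, and in epithelium-like cells 1.58 and 3.52 CPM. Intervals cover counting error only, so the spread between embryos is unknown.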
